A study of Mus musculus with 12 samples.

Results

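Uox, the gene of urate oxidase, was followed here together with Xdh, Gda, Pnp and Ada, 4 genes whose enzymes act before it in purine degradation. The 5 genes were picked by name from the 17090 genes of the deposited expression table. The pick was made with the knockdown result in view, because Uox was among the largest rises after knockdown of YAP1 and TAZ. All 5 were in the table, and all 5 had at least 1 CPM (reads of a gene scaled to a common library size) in each of the 12 libraries, so none was lost to the filter on low values. Their values in the knockdown comparison are therefore given as a description without a test, and tests of these genes are confined to the adenovirus comparison.

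Messenger RNA was sequenced from primary mouse keratinocytes, the epithelial cells of the epidermis, grown from tail skin of K14-SmoM2 mice. SmoM2 is an active form of the Hedgehog signal transducer Smoothened, and the mice serve as a model of basal cell carcinoma. K14 is keratin 14, a keratin of basal epidermis; the labels do not spell out the alleles behind the name or the promoter in front of SmoM2. Every group carried SmoM2, came from mice taken 5 weeks after tamoxifen, and was kept in EpiLife medium with 60 µM calcium, the EDGS supplement, 10 ng/ml mouse EGF and 10 µM of the ROCK inhibitor Y-27632. Treatment began a day after plating and the cells were harvested 48 h later. The siYAP1+TAZ group received siGENOME SMARTpool siRNAs against Yap1 and against Wwtr1, the gene of TAZ, and the siControl group received a non-targeting siRNA, at 8 pmol per cm2 with Lipofectamine RNAiMAX. The Ad-TEADi group received an adenovirus with the inhibitor TEADi, which blocks the TEAD transcription factors through which YAP and TAZ act, and the Ad-GFP group received Ad-CMV-GFP, both at a multiplicity of infection of 25. The TEADi virus was a type 5 vector with deletions in E1 and E3, and a CMV promoter drove its insert. Each group had 3 libraries, lettered A, B and C, and no sample used here was free of SmoM2. The labels do not tell whether A, B and C of a group stem from different mice or dishes, so each p-value here reflects the scatter of these libraries alone, possibly technical scatter.

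Purine degradation runs from nucleotides to nucleosides, from nucleosides to free bases, and from the bases to urate. Adenosine deaminase (Ada) turns adenosine into inosine, purine nucleoside phosphorylase (Pnp) releases hypoxanthine and guanine, guanine deaminase (Gda) turns guanine into xanthine, and xanthine dehydrogenase (Xdh) oxidises hypoxanthine and xanthine to urate. Mice, unlike humans, keep a working urate oxidase (Uox), a peroxisomal enzyme best known from liver, which turns urate into 5-hydroxyisourate, and the hydrolase encoded by Urah acts on that product.

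The RefSeq promoter table (GRCm38.p6, the assembly behind mm10) held entries for Uox, Gda, Pnp and Ada, 4 of the 5 genes, and not for Xdh. The Uox promoter is shown because Uox stood out in both comparisons and TEAD factors are the target of the adenoviral inhibitor. It covers 250 bases before to 50 bases after the RefSeq start, on the plus strand at chr3:146596899-146597198. Capitals mark its only match to the TEAD motif searched, GGAATG. The match lies on the opposite strand and begins at position 5 counted from 1 at the start. Another annotated protein-coding transcript of Uox starts at 146570426, and the bases around that start were not searched.

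Uox promoter: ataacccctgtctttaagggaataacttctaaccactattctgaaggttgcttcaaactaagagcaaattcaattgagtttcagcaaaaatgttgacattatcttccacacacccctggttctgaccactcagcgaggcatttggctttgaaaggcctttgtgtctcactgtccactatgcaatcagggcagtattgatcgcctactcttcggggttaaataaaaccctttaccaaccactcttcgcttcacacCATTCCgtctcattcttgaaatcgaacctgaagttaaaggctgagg

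Both strands were searched for GGAATG and for the AP-1 motif TGANTCA, whose first letters can overlap the last ones of GGAATG. The Uox entry had 1 match to GGAATG and none to TGANTCA. The entries of Gda, Pnp and Ada, and both entries of Urah, held neither. Of all 32851 promoters of 300 bases in the table, 14.7% held GGAATG and 7.81% held TGANTCA, so a match to the former is common. A match is a string of letters and not a measured binding site.

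The genes of the table held an estimated 20.04 to 29.14 M reads a library, taking the step between low CPM values as a single read. Reads outside these genes are not in that number. Libraries of one group correlated at 0.9967 or more over log2(CPM + 1), and libraries of different groups at 0.9902 or less. The knocked-down genes fell: Yap1 went from 196 ± 9.57 to 67.1 ± 4.62 CPM and Wwtr1 from 55.2 ± 1.96 to 28.1 ± 1.97 CPM (mean ± SD, n = 3 a group), with log2 changes of -1.54 and -0.95. Ccn2, a standard YAP/TAZ-TEAD target, had log2 changes of -2.31 with the siRNAs and -3.37 with Ad-TEADi.

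The end of the pathway is described first. Uox, at chromosome 3, 146570426 to 146632305 on the plus strand of mm10, stood at 3.48, 2.69 and 3.39 CPM in siControl libraries A, B and C. It stood at 66.1, 64.6 and 64.2 CPM in siYAP1+TAZ. All 3 knockdown libraries lay far above all 3 controls, and the mean went from 3.19 ± 0.433 to 65.0 ± 1.02 CPM, a ratio of 20.4. On the log2(CPM + 1) scale the difference was 3.98, and only 1 of the 12966 tested genes had a larger rise. These values chose the gene and carry no test.

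In the adenovirus experiment, which has its own controls, Uox stood at 1.69, 1.14 and 2.32 CPM in Ad-GFP and at 11.2, 11.7 and 11.4 CPM in Ad-TEADi. The groups did not overlap, and the mean went from 1.71 ± 0.590 to 11.4 ± 0.256 CPM, a ratio of 6.65. Uox rose with Ad-TEADi by 2.21 on the log2(CPM + 1) scale (SE 0.113, 95% interval 1.98 to 2.45; limma, Benjamini-Hochberg adjusted p = 1.94e-12). A total of 43 tested genes had a larger rise in that comparison. The added 1 CPM makes log2 changes of so low a gene smaller than the ratio: with 0.1 CPM added, the same change was 2.72. Uox rested on about 30 to 57 reads in the Ad-GFP libraries, 61 to 96 in siControl, 268 to 287 in Ad-TEADi and 1661 to 1892 in siYAP1+TAZ. From low to high the groups ran Ad-GFP, siControl, Ad-TEADi and siYAP1+TAZ, with no overlap between neighbours in that order. The siRNA and adenovirus groups differ in delivery, so this order sets a lipid transfection beside a virus.

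Xdh (chromosome 17, 73883895 to 73950196, minus strand), which makes the substrate of urate oxidase, stood at 172, 177 and 168 CPM in siControl and at 302, 323 and 302 CPM in siYAP1+TAZ. All knockdown libraries were above all controls, with means of 172 ± 4.46 and 309 ± 12.4 CPM and a ratio of 1.79. In Ad-GFP it stood at 188, 192 and 193 CPM and in Ad-TEADi at 206, 211 and 221 CPM. These groups did not overlap either, which held upward for 35.5% and downward for 28.5% of all tested genes, and the step between them was small, a ratio of 1.11. Xdh passed the test with Ad-TEADi at a log2 change of 0.15 (SE 0.0393, 95% interval 0.07 to 0.24; limma, Benjamini-Hochberg adjusted p = 0.0023). It no longer passed when the columns were rescaled to the same total (0.06, limma adjusted p = 0.251) or quantile normalized (0.05, limma adjusted p = 0.35).

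Gda (chromosome 19, 21391307 to 21473445, minus strand), which feeds xanthine to Xdh from guanine, went the other way after knockdown. Its values were 15.0, 14.6 and 13.3 CPM in siControl and 9.44, 7.31 and 8.19 CPM in siYAP1+TAZ, a ratio of means of 0.581 with every knockdown library below every control. In Ad-GFP it stood at 16.0, 17.3 and 18.4 CPM and in Ad-TEADi at 16.1, 17.4 and 16.6 CPM. The adenovirus groups overlapped, and Gda did not pass the test (log2 change -0.04, SE 0.0799, 95% interval -0.21 to 0.12; limma, Benjamini-Hochberg adjusted p = 0.667).

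Pnp (chromosome 14, 50931082 to 50965237, plus strand), the step that frees hypoxanthine and guanine, stood at 45.4, 41.6 and 34.4 CPM in siControl and at 30.9, 28.7 and 28.6 CPM in siYAP1+TAZ. The knockdown libraries all lay below the controls, with a ratio of means of 0.726. In Ad-GFP it stood at 45.3, 46.9 and 43.6 CPM and in Ad-TEADi at 40.1, 39.9 and 39.3 CPM, again without overlap. Pnp fell with Ad-TEADi by 0.18 on the log2 scale (SE 0.0702, 95% interval -0.33 to -0.04; limma, Benjamini-Hochberg adjusted p = 0.0312). That call was lost when Ad-GFP library A or B, or any one of the 3 Ad-TEADi libraries, was left out: the limma adjusted p was 0.0666 without Ad-GFP A, 0.0925 without Ad-GFP B, and 0.0581, 0.0629 and 0.072 without Ad-TEADi A, B and C.

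Pnp shares its locus with the read-through gene Gm49342 on the same strand, and the annotated exons of the pair have 718 bases in common, so reads could be split between them. The exons of Pnp also share 356 bases with Gm38316 on the opposite strand, and whether counting used strand is not stated in the sources used here. Gm49342 stood at 12.6, 13.3 and 18.4 CPM in siControl, where library C had both the lowest Pnp and the highest Gm49342 value. Summed, the pair stood at 58.0, 54.9 and 52.8 CPM in siControl, 44.6, 42.7 and 44.3 in siYAP1+TAZ, 67.5, 67.1 and 66.9 in Ad-GFP, and 60.7, 57.1 and 58.8 in Ad-TEADi. The sum, chosen after the values were seen, separated the groups as Pnp alone did and fell with Ad-TEADi by 0.19 on the log2 scale (SE 0.0435; limma, Benjamini-Hochberg adjusted p = 0.00103). The neighbouring copy Pnp2 stood between 0.166 and 0.487 CPM, under the filter. Its main transcript matched that of Pnp at 95.1% of 1235 aligned bases, and 15.1% of the 50-base windows of Pnp occurred in it without mismatch, so both are uncertain to that extent.

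Ada (chromosome 2, 163726584 to 163750239, minus strand), the deaminase that makes inosine from adenosine, had the smallest knockdown difference of the 5. Its values were 9.59, 9.84 and 9.54 CPM in siControl and 9.30, 9.03 and 8.85 CPM in siYAP1+TAZ, a ratio of means of 0.938. In Ad-GFP it stood at 8.48, 9.77 and 9.06 CPM and in Ad-TEADi at 10.2, 9.75 and 9.57 CPM, and these groups overlapped. Ada did not pass the test (log2 change 0.10, SE 0.0681, 95% interval -0.04 to 0.24; limma, Benjamini-Hochberg adjusted p = 0.212).

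**Figure D1:**
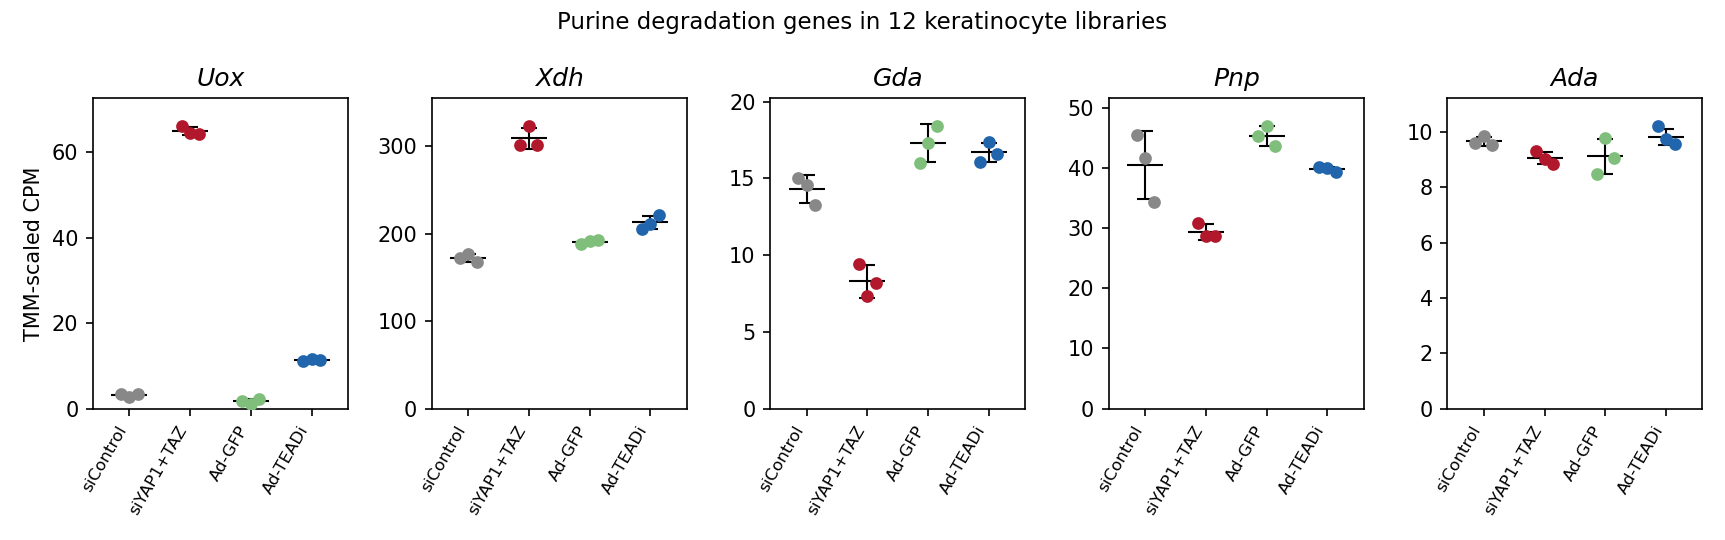
TMM-scaled CPM (vertical axes from 0, one scale per gene) of Uox, Xdh, Gda, Pnp and Ada in each of the 12 libraries, as points by group, with the mean as a line and the SD as a bar. Uox sits near 65.0 CPM in siYAP1+TAZ and near 11.4 CPM in Ad-TEADi, above 3.19 and 1.71 CPM in the matching controls, while Ada stays between 8.48 and 10.2 CPM throughout.

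With Ad-TEADi, Uox and Xdh rose, Pnp fell and Gda and Ada did not pass the test, which makes 3 of 5 called. In that comparison 59.8% of the 12966 tested genes were called, 33.5% higher and 26.3% lower, so a share of 3 in 5 is near the background. In the knockdown, Uox and Xdh were higher and Gda, Pnp and Ada lower in all 3 libraries than in all 3 controls. Such separation held for 34.4% of all tested genes upward and 37.8% downward, and nothing is read from it for genes chosen on this comparison.

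Urah, whose enzyme acts right after urate oxidase, was higher in both experiments. It lies on chromosome 7 at 140835018 to 140837966, and stood at 283, 255 and 280 CPM in siControl and at 778, 816 and 787 CPM in siYAP1+TAZ. In Ad-GFP it stood at 178, 177 and 187 CPM and in Ad-TEADi at 543, 519 and 488 CPM. The groups lay well apart, with ratios of 2.91 and 2.86. Urah rose by 1.54 on the log2 scale with knockdown (SE 0.0464; limma, Benjamini-Hochberg adjusted p = 4.34e-16) and by 1.51 with Ad-TEADi (SE 0.0464; limma adjusted p = 1.08e-15). The difference between these effects was 0.03, with a 95% interval of -0.11 to 0.17 (limma, Benjamini-Hochberg adjusted p = 0.751). Its exons share 177 bases with C330022C24Rik on the opposite strand, and the sources used here do not say whether counting used strand. Urad, whose enzyme acts after that of Urah, and Allc, the gene of allantoicase, were not analysed here.

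The list of other degradation genes, Urah included, held more falls than rises. Of 12 tested, 2 rose and 5 fell in the knockdown (1 and 9 with columns rescaled to the same total), where 68.9% of all tested genes were called (32.7% higher, 36.1% lower). With Ad-TEADi 1 rose and 5 fell, where 33.5% of all tested genes were higher and 26.3% lower. The medians were -0.09 and -0.07, beside -0.031 and 0.032 over all genes. Nt5e, the cell-surface nucleotidase that makes adenosine from AMP, fell from 205 to 132 CPM with knockdown and from 164 to 112 CPM with Ad-TEADi (log2 -0.63 and -0.54; limma adjusted p = 4.05e-11 and 6.83e-10). Nt5c, a cytosolic nucleotidase, fell in both as well (-0.39 and -0.26). Lacc1, whose product has been described as a purine nucleoside enzyme, fell with knockdown (-0.32, limma adjusted p = 0.00208) and did not pass with Ad-TEADi (-0.08, limma adjusted p = 0.406). Ampd3, an AMP deaminase, had 0.21 with knockdown, a call lost with columns rescaled to the same total (0.02, limma adjusted p = 0.709) and after quantile normalization (0.01, limma adjusted p = 0.874), and fell with Ad-TEADi (-0.13).

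**Figure D2:**
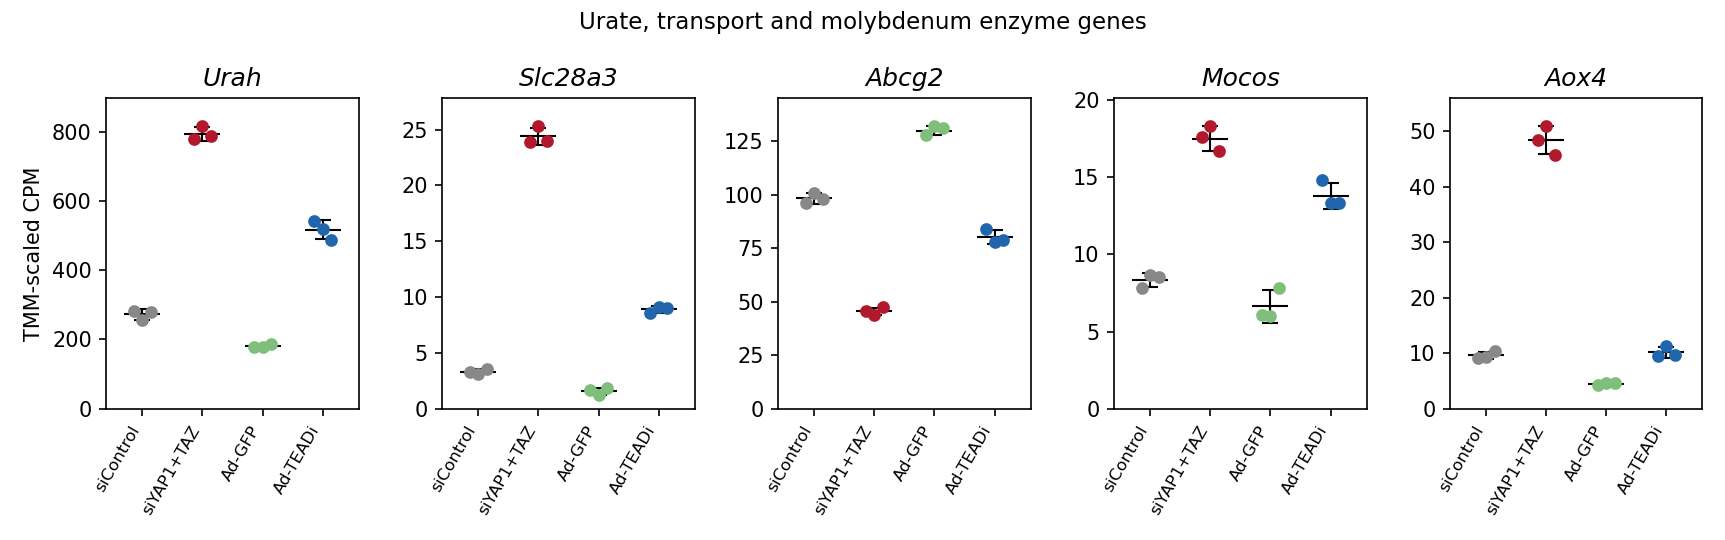
TMM-scaled CPM (vertical axes from 0) of Urah, Slc28a3, Abcg2, Mocos and Aox4 in each library, as points by group, with the mean as a line and the SD as a bar. Urah, Slc28a3, Mocos and Aox4 lie higher and Abcg2 lower in the treated group than in its control in both experiments.

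Xdh needs a molybdenum cofactor, and genes of that route were more often higher than lower. Of 10 tested genes for the cofactor and its other enzymes, 7 rose and 1 fell with knockdown, with a median of 0.45. With Ad-TEADi 6 rose and 2 fell, with a median of 0.40. Aox2 is among the genes that rose in both (0.83 and 0.40). It reached 1 CPM only in siYAP1+TAZ (1.12, 1.03 and 1.20 CPM), so it passed the filter only through the group where it was high. Its knockdown rise therefore adds no support to the count. Among all tested genes 32.7% rose and 36.1% fell with knockdown, and 33.5% rose and 26.3% fell with Ad-TEADi. With columns rescaled to the same total, the knockdown count was 5 and 2. Mocos, the sulfurase that activates the cofactor in Xdh and the aldehyde oxidases, rose from 8.33 to 17.5 CPM and from 6.63 to 13.8 CPM (log2 0.99 and 0.96; limma adjusted p = 3.1e-09 and 7.1e-09). Mocs1 and Mocs2, which act early in making the cofactor, rose by 0.93 and 0.62 with knockdown and by 0.40 and 0.74 with Ad-TEADi. Among the aldehyde oxidases, Aox4 rose from 9.60 to 48.4 CPM with knockdown and from 4.51 to 10.2 CPM with Ad-TEADi (log2 2.22 and 1.02; limma adjusted p = 1.67e-15 and 3.92e-10). Aox1 fell with knockdown (-0.69). With Ad-TEADi it had -0.28 (limma adjusted p = 0.0341), a call lost in 6 of 19 alternatives: without Ad-GFP A (0.0585), B (0.0605) or C (0.0842), without Ad-TEADi A (0.10) or B (0.163), and after quantile normalization (0.086).

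Transporters of urate and nucleosides moved in both directions. Of 7 tested, 4 rose and 2 fell with knockdown and 4 rose and 1 fell with Ad-TEADi. The called shares, 85.7% and 71.4%, lie beside 68.9% and 59.8% over all genes. With columns rescaled to the same total the counts were 3 and 3, and 3 and 2. Slc28a3, a sodium-driven nucleoside importer, stood at 3.33, 3.09 and 3.57 CPM in siControl, 23.9, 25.3 and 24.0 in siYAP1+TAZ, 1.66, 1.21 and 1.83 in Ad-GFP, and 8.56, 9.13 and 8.98 in Ad-TEADi. Its groups fell in the same order as those of Uox, without overlap, and it rose by 2.55 and 1.95 (limma adjusted p = 2.73e-15 and 3.04e-13). Abcg2, an exporter of urate, fell from 98.4 to 45.5 CPM and from 130 to 80.2 CPM (log2 -1.10 and -0.70; limma adjusted p = 1.15e-14 and 2.39e-11). Slc2a9, a urate carrier, rose with knockdown (6.44 to 12.2 CPM, log2 0.82, limma adjusted p = 2.83e-08). Its change with Ad-TEADi was 0.25 (limma adjusted p = 0.013) and was lost without Ad-GFP A (0.0651), without Ad-TEADi B (0.0616) and with columns rescaled to the same total (0.0978). Abcc4, which also exports urate, rose with knockdown (0.61, limma adjusted p = 3.77e-07) and had -0.07 with Ad-TEADi (limma adjusted p = 0.401).

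Most genes listed for the routes that build purines fell in the knockdown. Of 16 tested genes listed for de novo synthesis, 14 fell and 1 rose with knockdown (median -0.44), and 6 fell and 3 rose with Ad-TEADi (median -0.09). The falls in both include Gmpr and Gmpr2, whose enzymes turn GMP back into IMP and are not part of de novo synthesis. Gmpr had -0.69 and -0.47, and Gmpr2 had -0.51 and -0.25. Among all tested genes 36.1% fell and 32.7% rose with knockdown, and 26.3% fell and 33.5% rose with Ad-TEADi. With columns rescaled to the same total, the Ad-TEADi count was 10 and 0. Paics, a middle enzyme of the route, fell from 130 to 73.2 CPM and from 175 to 110 CPM (log2 -0.82 and -0.66). Atic, which closes the ring, fell by 0.80 and by 0.31. Ppat, the committed step, fell with knockdown (-0.71, limma adjusted p = 4.6e-09), and with Ad-TEADi it had -0.15 (limma adjusted p = 0.051), passing in 8 of 20 alternatives. Adss, on the branch to AMP, fell by 0.58 and by 0.37.

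Salvage enzymes, which return bases and nucleosides to nucleotides in competition with degradation, differed between the experiments. Of 6 tested, 4 fell and none rose with knockdown, whereas 3 rose and 2 fell with Ad-TEADi. The called shares, 66.7% and 83.3%, lie beside 68.9% and 59.8% over all genes. The effects themselves differed for 5 of the 6, all lower in the knockdown, where 51.5% of all tested genes had effects that differed (26.4% lower). Aprt, which salvages adenine, fell from 101 to 81.7 CPM with knockdown and rose from 78.0 to 109 CPM with Ad-TEADi (log2 -0.30 and 0.47; limma adjusted p = 8.26e-05 and 4.76e-07). Dck, the deoxycytidine kinase that also accepts purine deoxynucleosides, did likewise (-0.32 and 0.26). Mtap, which frees adenine from methylthioadenosine, fell in both, from 222 to 96.0 CPM and from 161 to 119 CPM (log2 -1.20 and -0.43). Adk, which returns adenosine to AMP, fell by 0.57 and by 0.26. Hprt, which salvages the bases that Xdh would oxidise, rose with Ad-TEADi (0.21, limma adjusted p = 0.00041) and had -0.09 with knockdown (limma adjusted p = 0.0705), passing in 3 of 20 alternatives.

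Urate oxidase is peroxisomal and releases hydrogen peroxide, but peroxisomal genes did not rise as a group. Of 35 tested, 13 rose and 11 fell with knockdown, and 6 rose and 11 fell with Ad-TEADi, with medians of -0.02 and -0.06. The called shares, 68.6% and 48.6%, lie beside 68.9% and 59.8% over all genes. With columns rescaled to the same total, the counts were 7 and 20, and 5 and 18. Prdx5, a peroxiredoxin that removes peroxides, rose from 189 to 411 CPM and from 124 to 292 CPM (log2 1.12 and 1.23). Agps, of ether lipid synthesis, fell by 0.86 and by 0.53. Ehhadh, an enzyme of peroxisomal fatty acid oxidation, fell with Ad-TEADi (-0.82, limma adjusted p = 8.59e-08) and had -0.13 with knockdown (limma adjusted p = 0.172), passing in 2 of 20 alternatives. Cat, the catalase that breaks down hydrogen peroxide, did not pass with knockdown (-0.02, limma adjusted p = 0.734), although it passed in 2 of 20 alternatives. It had -0.15 with Ad-TEADi (limma adjusted p = 0.0116), a call lost without Ad-TEADi A (0.0588).

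Of 3 tested genes for extracellular nucleotides and adenosine receptors, 3 rose with knockdown (1 with columns rescaled to the same total). With Ad-TEADi 1 rose (2 after quantile normalization). Among all tested genes 32.7% rose with knockdown and 33.5% with Ad-TEADi. The cell-surface nucleotidase gene Nt5e, counted above with the degradation genes and not here, fell in both (-0.63 and -0.54). Enpp1, an ectonucleotidase, had 0.25 with knockdown (limma adjusted p = 0.0451), and rose by 0.50 with Ad-TEADi (limma adjusted p = 0.000469). The knockdown call was lost in 10 of 20 alternatives, among them those without siControl A (0.132) or C (0.161), siYAP1+TAZ A (0.116) or C (0.142) and Ad-GFP A (0.0504). Adora2b, an adenosine receptor, had 0.23 with knockdown (limma adjusted p = 0.0161), a call lost without siControl C (0.0927), without siYAP1+TAZ B (0.0712) and with columns rescaled to the same total (0.558). Over all 89 tested pathway genes, 30 rose and 37 fell with knockdown and 24 rose and 27 fell with Ad-TEADi. The called shares, 75.3% and 57.3%, lie beside 68.9% and 59.8% over all genes. With columns rescaled to the same total, 17 rose and 55 fell with knockdown and 19 rose and 39 fell with Ad-TEADi.

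**Figure D3:**
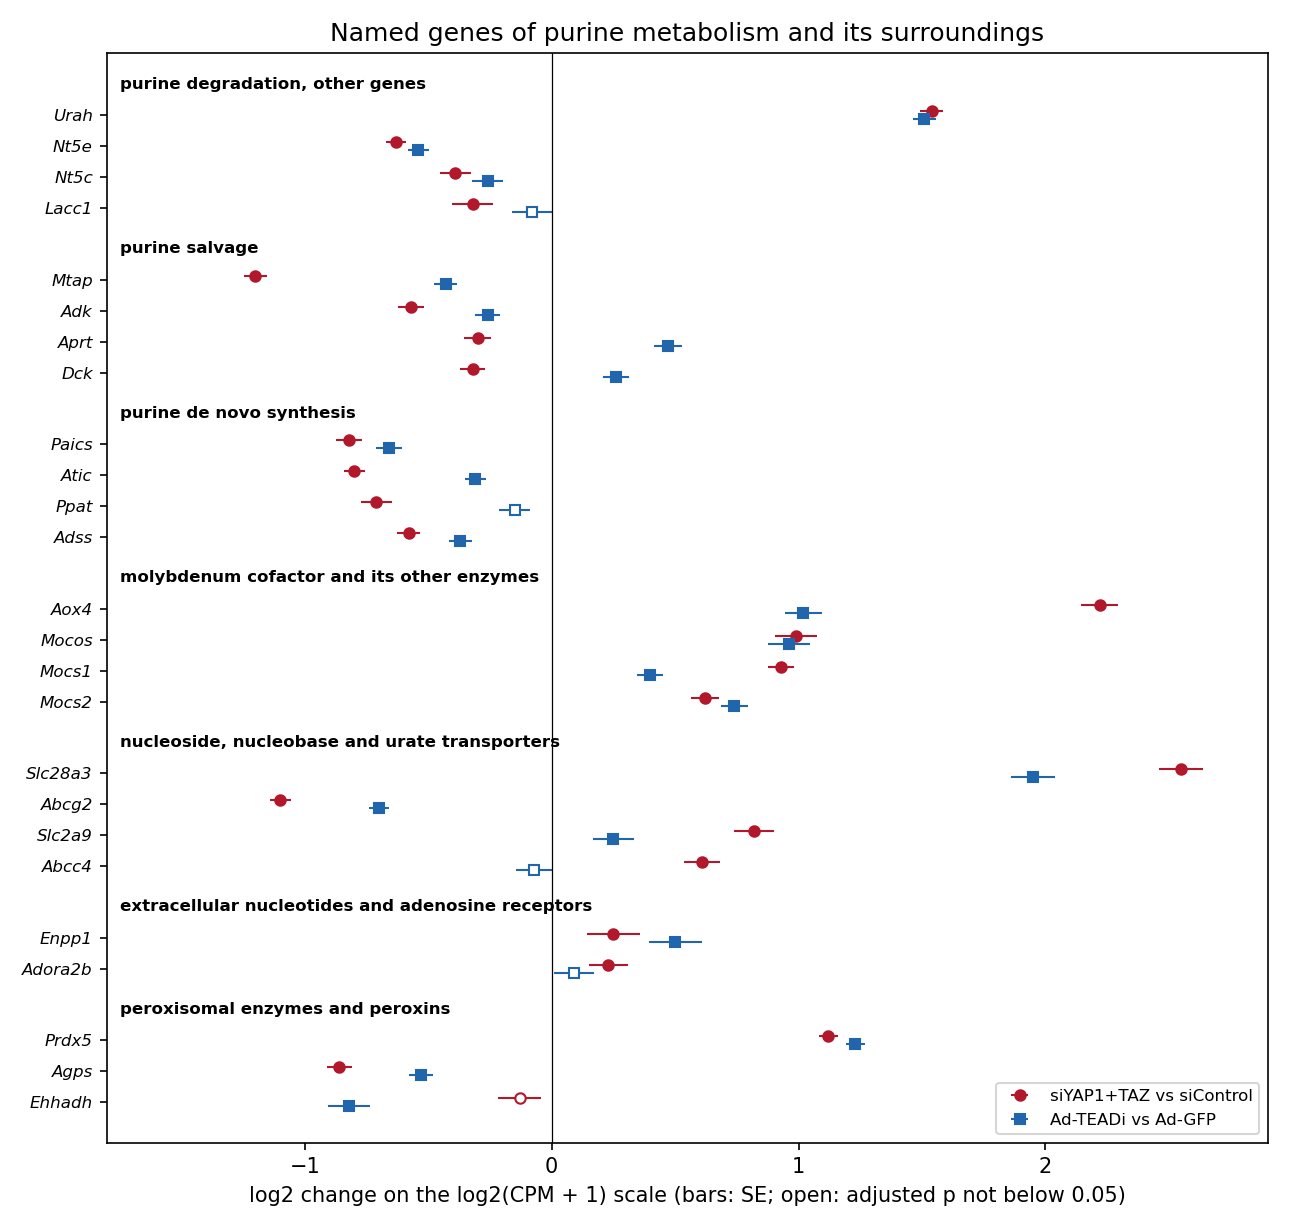
log2 change on the log2(CPM + 1) scale (horizontal axis) of the named genes of each list, with SE bars. Red circles are siYAP1+TAZ against siControl, blue squares Ad-TEADi against Ad-GFP, and open symbols did not pass an adjusted p of 0.05. Urah, the molybdenum cofactor genes and Slc28a3 lie to the right of 0 in both, the de novo genes to the left, and Aprt and Dck on opposite sides.

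The neighbours of Uox on chromosome 3 are described next. Uox was chosen for its large knockdown rise, so smaller changes in its neighbours say nothing particular about the locus. The table held 8 genes with bodies within 250 kb of Uox. Of these, 4 rose and 1 fell with knockdown, with log2 changes from -0.25 to 0.68. With Ad-TEADi 4 rose and 1 fell as well, from -0.43 to 0.33. Among all tested genes 32.7% rose and 36.1% fell with knockdown, and 33.5% rose and 26.3% fell with Ad-TEADi. The nearest, Rpf1, a ribosome assembly factor 49.0 kb before Uox, had 0.23 and 0.22 (limma adjusted p = 0.00242 and 0.00417), both lost with columns rescaled to the same total (0.04 and 0.13). Ttll7, a tubulin-modifying enzyme 220 kb after it, had the largest knockdown change of the 8 at 0.68 (limma adjusted p = 9.72e-10). Prkacb, a catalytic subunit of protein kinase A 97.3 kb after it, fell by 0.43 with Ad-TEADi. It had 0.16 with knockdown, which turned to -0.03 (limma adjusted p = 0.541) with columns rescaled to the same total. Dnase2b overlaps Uox on the opposite strand with 0 shared exonic bases and was not analysed here.

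**Figure D4:**
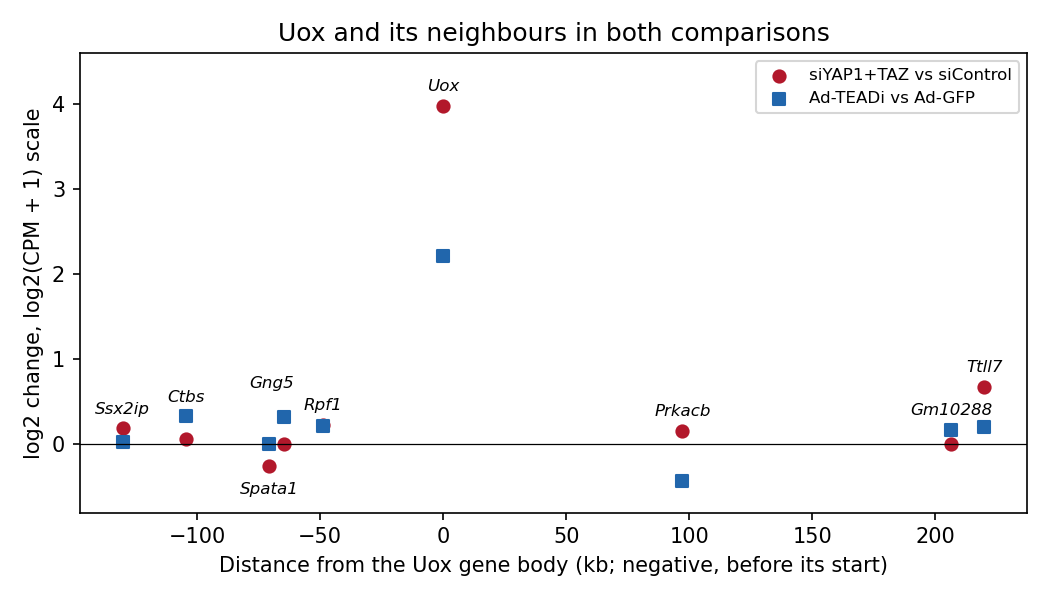
log2 change on the log2(CPM + 1) scale (vertical axis) of Uox and the 8 neighbouring genes of the table against distance from the Uox gene body in kb (horizontal axis). Red circles are the knockdown and blue squares Ad-TEADi. Uox stands at 3.98 and 2.21, and its neighbours between -0.43 and 0.68.

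Among the 8936 tested genes that averaged 10 CPM or more, those whose log2(CPM + 1) ran most like that of Uox over the 12 libraries were Zfp750, Tgm5, Klf4, Plekhg1, Atp13a4 and Samhd1 (Pearson r 0.998 each), then Rbp2 and Blmh (0.997 each). The 12 points share 4 groups, so r mainly compares group means. Klf4, a transcription factor of epidermal differentiation, averaged 215, 1210, 170 and 419 CPM with siControl, with siYAP1+TAZ, with Ad-GFP and with Ad-TEADi. Zfp750, another differentiation factor, averaged 68.0, 305, 50.7 and 121 CPM, and Tgm5, a transglutaminase of the cornified layer, 18.5, 144, 12.6 and 46.4 CPM. Samhd1, which breaks down deoxynucleotides, averaged 41.6, 268, 34.8 and 93.3 CPM. These genes were picked for their likeness to Uox over the same libraries, so the group order they share with it is no separate result. The r to Uox was 0.936 for Xdh, 0.965 for Urah, 0.991 for Slc28a3, -0.192 for Ada, -0.829 for Gda and -0.895 for Pnp. How common such values are among all genes was not counted.

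Markers of differentiated, suprabasal keratinocytes moved with Uox. All 12 listed were in the table, and their summed level was 1990 to 2240 CPM in siControl, 11100 to 12300 in siYAP1+TAZ, 1550 to 2020 in Ad-GFP and 5000 to 5250 in Ad-TEADi. All 12 rose with knockdown and 11 of 12 with Ad-TEADi, the exception being Lor, which encodes loricrin (-0.02, limma adjusted p = 0.914). Among all tested genes 32.7% rose and 36.1% fell with knockdown, and 33.5% rose and 26.3% fell with Ad-TEADi. Flg, counted among the 11, passed with Ad-TEADi (0.39, limma adjusted p = 0.00541) although its Ad-TEADi and Ad-GFP libraries overlapped. Krt10, a suprabasal keratin, rose by 3.98 and 2.98. Their part in the Uox result was not tested. In bulk RNA more cells of a type and more RNA per cell cannot be told apart. The 6 defining keratinocyte markers summed to 38000 to 44900 CPM in all 12 libraries, and none was near 0.

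Cell types that could bring Uox or Xdh from elsewhere were looked at in the same way. Of 12 hepatocyte markers only Hpx was in the table, at 0.205 to 0.720 CPM. No value in the table is 0, so a gene without reads in some library may have been left out. Absence from the table is therefore not a measured level. Of 11 markers of macrophages and other immune cells 8 were in the table, and their sum was 17.9 to 18.9 CPM in siControl, 50.7 to 52.6 in siYAP1+TAZ, 17.9 to 20.4 in Ad-GFP and 41.1 to 45.1 in Ad-TEADi. Of the 4 that were tested, 3 rose and 1 fell in both comparisons, beside the shares over all genes given with the suprabasal markers. Cd68, a gene of a lysosomal protein abundant in macrophages, rose by 1.83 and 1.47 and averaged 9.97, 38.0, 9.97 and 29.3 CPM in the same order of groups. Lyz2, a myeloid lysozyme, rose by 0.81 and 0.67 (limma adjusted p = 1.8e-07 and 3.18e-06), from 5.29 to 10.0 CPM and from 5.69 to 9.70 CPM. Itgam, a myeloid integrin subunit, rose by 0.46 and 0.79 (limma adjusted p = 0.00101 and 4.21e-06), and Csf1r, a macrophage receptor gene, fell by 0.66 and by 0.85. Both were low: in the same order Itgam averaged 1.23, 2.07, 1.19 and 2.78 CPM, and Csf1r 1.08, 0.32, 1.29 and 0.275 CPM. Csf1r passed the filter only through the control libraries, where it was higher. The other 4, under the filter, were Ptprc, Mrc1, C1qa and C1qb. Ptprc, the pan-leukocyte gene, averaged 0.102, 0.175, 0.133 and 0.383 CPM, and its Ad-TEADi libraries all lay above Ad-GFP. Of 8 sebaceous markers 5 were in the table, summing to 872 to 887 CPM in siYAP1+TAZ and 1040 to 1090 in Ad-TEADi, beside 968 to 1030 and 955 to 980 in the controls. Singly, 2 of the 5 rose and 2 fell with knockdown, and 4 rose and 1 fell with Ad-TEADi, beside the same shares over all genes. Dgat2 rose by 2.09 and 1.73, and Scd3, at up to 3.08 CPM, by 0.56 and 1.27. Scd1 fell by 0.54 and by 0.23, and Plin2 fell by 1.15 with knockdown and rose by 0.14 with Ad-TEADi. Fibroblast, endothelial and melanocyte markers summed to at most 11.2, 11.1 and 13.5 CPM in any library. Melanocyte sums were 9.26 to 10.5 CPM in siControl, 11.7 to 13.5 in siYAP1+TAZ, 8.6 to 9.79 in Ad-GFP and 9.99 to 12.2 in Ad-TEADi. Fibroblast sums were 3.84 to 7.07, 5.66 to 11.2, 2.35 to 3.21 and 3.7 to 4.26 CPM in that order. Endothelial sums overlapped in both comparisons. The part of all these cell type sums in the results was not tested.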

How the data were processed

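Per the labels' protocols, RNA came from TRIzol extraction and poly(A) libraries from a TruSeq mRNA kit. The values are CPM that the authors deposited after TMM scaling (trimmed mean of M-values), as the table's name says. Tools named in the submitters' processing notes are cutadapt 1.18, STAR 2.7.0f and Partek 8.0.19.0819, with build mm10. Not given in the sources used here are the counting rule, strand use and the handling of genes without reads. No value is 0. Of the low values, 83.6% to 85.6% came out whole to within 0.1 read, so no count test was run. The authors' own comparison table was not used.

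The tests were made on log2(CPM + 1) by limma 3.58.1 (R 4.3.3), which understates changes of low genes. A gene needed 1 CPM in 3 of the 12 libraries, which kept 12966 of 17090 genes and removed 4124. A single fit of group means took in all 12 libraries, using eBayes with a mean-dependent trend. Tests were two-sided, and p-values were Benjamini-Hochberg adjusted over the 12966 genes with a threshold of 0.05. Changes are siYAP1+TAZ against siControl and Ad-TEADi against Ad-GFP, and the difference of effects is the first minus the second. The fit was tested on simulated data. Promoter and transcript searches used Python 3.11.15 with Biopython 1.88.

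The 5 genes, the gene lists and the tests were chosen with earlier results of these data known. Named genes are the 5 genes, up to 4 genes of each list with the largest absolute change among those that passed in either comparison with a mean of at least 5 CPM, enzymes one step from Uox or Xdh, the 8 genes most like Uox and the genes within 250 kb of it. Ampd3, Hprt, Cat, Aox1, Cd68, Lyz2, Itgam, Ptprc, Csf1r, Dgat2, Scd1, Scd3 and Plin2 were named after their values were seen. A gene that the rule named is not reported here. Alternatives covered the pseudocount, the filter, 2 other scalings, the trend, the libraries fitted, a replicate block and leaving out each library. Summing Pnp with Gm49342 was added after the data were seen.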

Additional observations from a re-analysis of the deposited data

Results flagged for a closer look

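For 15 of the pathway genes named by the rule and reported here, the effect of the knockdown differed from that of Ad-TEADi. The test was of the difference itself in limma, with Benjamini-Hochberg adjustment over all 12966 tested genes. Of all tested genes, 51.5% passed it, and of the 89 tested pathway genes 48.3%. The named genes were picked for large changes in either comparison, so nothing is read from how many of them passed it. Ampd3 (0.34, limma adjusted p = 5.02e-05), Hprt (-0.31, limma adjusted p = 0.000495) and Aox1 (-0.41, limma adjusted p = 0.0312), named after their values were seen, passed it too. Differences are the knockdown effect minus the Ad-TEADi effect on the log2(CPM + 1) scale. The experiments also differ in delivery and controls, which cannot be told apart from the difference between the agents.

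Aprt (-0.78, SE 0.0791, adjusted p = 1.85e-07) and Dck (-0.58, SE 0.0724, adjusted p = 2.48e-06) fell with knockdown and rose with Ad-TEADi. The falls of Mtap (-0.77, adjusted p = 2.55e-08) and Adk (-0.31, adjusted p = 0.00142) were larger with knockdown, as were those of the synthesis genes Atic (-0.49, adjusted p = 2.12e-06) and Adss (-0.21, adjusted p = 0.011). Ppat (-0.56, adjusted p = 3.27e-05) fell in the knockdown and did not pass with Ad-TEADi.

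The rises of Aox4 (1.20, SE 0.105, adjusted p = 2.47e-08), Mocs1 (0.53, adjusted p = 9.02e-06), Slc28a3 (0.60, adjusted p = 0.000557) and Slc2a9 (0.57, adjusted p = 0.000423) were larger with knockdown. Abcc4 (0.68, adjusted p = 2.08e-05) rose in the knockdown and did not pass with Ad-TEADi. The falls of Abcg2 (-0.40, adjusted p = 1.76e-05) and Agps (-0.33, adjusted p = 0.000754) were larger with knockdown. Ehhadh (0.69, SE 0.122, adjusted p = 0.000113) fell with Ad-TEADi and did not pass in the knockdown.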

How the results depend on the processing

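No call of the 5 genes changed direction. The knockdown change of Prkacb, 0.16, turned to -0.03 with columns rescaled to the same total. Over the alternatives the genes called ran from 7787 to 9983 for the knockdown and from 6769 to 8403 for Ad-TEADi, and the pathway genes called from 59 to 72, from 47 to 58 and, for the difference of effects, from 40 to 52. Rescaling columns to the same total shifted the median log2 change of all genes by -0.173 in the knockdown and -0.089 with Ad-TEADi. The split of called genes then went from 4245 higher and 4687 lower to 2837 and 7146 in the knockdown, and from 4339 and 3415 to 3034 and 4719 with Ad-TEADi. The split of pathway genes whose effects differed went from 19 higher and 24 lower to 15 and 37. That rescaling moved the knockdown differences to 3.80 for Uox, 0.65 for Xdh, -0.90 for Gda, -0.63 for Pnp and -0.26 for Ada. Quantile normalization gave 0.65 for Xdh and -0.05 for Ada, and a pseudocount of 0.1 CPM gave 4.31 for Uox. With Ad-TEADi, Xdh was lost under the same-total rescaling (0.06) and quantile normalization (0.05), and Pnp with no mean-dependent trend (-0.18, limma adjusted p = 0.0699). Leaving out single libraries left Pnp between -0.21 and -0.16 and Uox between 2.05 and 2.37. The cause of these moves was not tested.

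The letters A, B and C do not show which samples share a source. Correlations of same-letter deviations were -0.014, 0.087 and 0.028 in the knockdown and -0.004, 0.147 and 0.161 with Ad-TEADi, and not every sample correlated best with its own letter. With a replicate block, Uox kept 2.21 (limma adjusted p = 2.78e-12) and 9061 and 7917 genes were called. Depth limits Uox in Ad-GFP to about 30 to 57 reads a library.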
